A study of Arabidopsis thaliana with 18 samples.

Results

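In TSA-treated embryo explants of Arabidopsis thaliana, 41 genes showed a transcript peak on the 5th day of culture, relative to the other groups sampled. The unit of level is CPM, the count of a gene divided by the total of its library and multiplied by 1000000, without correction for gene length. A gene was selected when its mean over the 3 libraries of the ET 5 d group was at least 10 CPM and at least 4 times the mean of each of the other 5 groups. This selected 41 of 32548 nuclear loci in a table of 34218 rows, of which 12088 loci reached 10 CPM in ET 5 d. Since the ET 5 d levels chose the genes, every comparison of these genes with ET 5 d is a description without a test. They were tested only between groups whose order the selection left free, and calls that involve ET 5 d are given only for genes outside the selection. The selection set an upper limit on those groups, but no order among them. Of the 41 genes, 40 encode proteins and 1, AT5G07295, is annotated as a long non-coding RNA.

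The libraries came from wild-type Col-0 explants, which are immature zygotic embryos cut out at the cotyledonary stage and kept in culture. ET explants were cultured with 1 µM trichostatin A (TSA), which inhibits histone deacetylases; the EA medium held 5 µM 2,4-D, a synthetic auxin. Both treatments induce somatic embryogenesis, the formation of embryos from somatic cells, while E0 explants received no inducer and grew into seedlings. RNA was sampled on day 5 and day 10, with 3 biological replicates, a, b and c, in each of the groups ET 5 d, ET 10 d, EA 5 d, EA 10 d, E0 5 d and E0 10 d. The series holds no explants from before culture, so a rise up to day 5 was not observed. All 18 libraries were made from pooled whole explants, so that fewer cells of a type and less RNA per cell cannot be told apart.

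Plants answer pathogens through receptors at the cell surface and proteins inside the cell, and salicylic acid then induces secreted pathogenesis-related proteins such as glucanases and chitinases. WRKY factors, which bind the W box with its TTGAC core, and TGA factors, which bind TGACG, are among the transcription factors of this response. Histone deacetylases remove acetyl groups from histones, and their inhibition raises histone acetylation at many genes. Many of the 41 genes are known from pathogen, wall or stress responses, and they are grouped below by annotated function, a grouping made after the genes were known.

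Libraries held 9098758 to 58364735 counts, with E0 5 d c the shallowest and ET 5 d b next to it. A gene with 3 counts or fewer in every library of a group was taken to lie at the floor of detection. In single libraries 3 counts equal 0.0514 to 0.33 CPM. Markers of other tissues were summed per library. The 8 endosperm markers summed to 30.4 to 40.4 CPM in ET 5 d and 66.6 to 68.0 CPM in ET 10 d. They summed to 13.1 to 18.7 CPM in EA 5 d and 12.3 to 15.6 CPM in EA 10 d. E0 5 d had 3.46 to 6.94 CPM and E0 10 d 6.93 to 8.31 CPM. PHE1 was at 0 in all ET and EA 5 d libraries, and FIS2 in all ET 10 d libraries. Of the 8 markers, 4 lay above the detection floor in ET 5 d and 5 in ET 10 d. The 9 seed storage and oil body markers summed to 29944 to 43642 CPM in ET 5 d and 106484 to 144228 CPM in ET 10 d, with 41301 to 56430 CPM in EA 5 d, 28732 to 50545 CPM in EA 10 d, 104557 to 143186 CPM in E0 5 d and 125634 to 197667 CPM in E0 10 d. ET 5 d thus lay below ET 10 d and E0 in these markers and overlapped with EA. The 4 root markers summed to 0.795 to 3.94 CPM in ET 5 d and 209.5 to 430.3 CPM in E0 5 d. EA 5 d had 1.23 to 2.28 CPM, EA 10 d 0.945 to 5.57 CPM and ET 10 d 5.25 to 30.6 CPM. E0 10 d had 110.5 to 156.9 CPM. The 4 green leaf markers summed to 1903 to 3302 CPM in ET 5 d and 1209.6 to 1319 CPM in E0 5 d. They had 1752 to 2868 CPM in ET 10 d, 967 to 1282 CPM in EA 5 d and 829 to 1233 CPM in EA 10 d. E0 10 d had 1405 to 2321 CPM, which overlapped with ET 5 d. The part of these differences in tissue in the peak was not tested.

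The peak covered a wide range of levels. The mean in ET 5 d ran from 10.1 CPM for NAC036 to 3839 CPM for LTP3, with a median of 28.0 CPM over the 41 genes. The ratio of the ET 5 d mean to the highest other group mean ran from 4.05 to 623, with a median of 6.46. It was at least 10 for 14 genes, at least 50 for 5 genes and under 5 for 14 genes. The highest other group was ET 10 d for 23 genes, E0 10 d for 13, EA 5 d for 2, E0 5 d for 2 and EA 10 d for 1. On day 10 of TSA culture, the mean was at most 24.7% of its day 5 value, and its median was 11.5%.

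Summed over the 41 genes, transcripts made up 9418, 9476 and 6073 CPM in the 3 ET 5 d libraries and 2055, 1299 and 1067 CPM in ET 10 d. The sums were 558, 557 and 483 CPM in EA 5 d, 556, 417 and 327 CPM in EA 10 d, 454, 503 and 533 CPM in E0 5 d and 311, 323 and 306 CPM in E0 10 d. A few abundant genes carried these sums, and the median over the 41 genes was 28.0 CPM in ET 5 d, 3.13 CPM in ET 10 d, 0.319 CPM in EA 5 d, 0.353 CPM in EA 10 d, 0.699 CPM in E0 5 d and 2.07 CPM in E0 10 d. Fewer than 1 CPM was the mean of 6 genes in ET 10 d, 27 in EA 5 d, 32 in EA 10 d, 26 in E0 5 d and 10 in E0 10 d. At the detection floor were 1 gene in ET 10 d, 6 in EA 5 d, 3 in EA 10 d, 9 in E0 5 d and 1 in E0 10 d. The 3 ET 5 d libraries lay above all other 15 libraries for 35 of the 41 genes, against 3.02% of the 12088 genes with 10 CPM in ET 5 d, a contrast that the selection used.

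**Figure D1:**
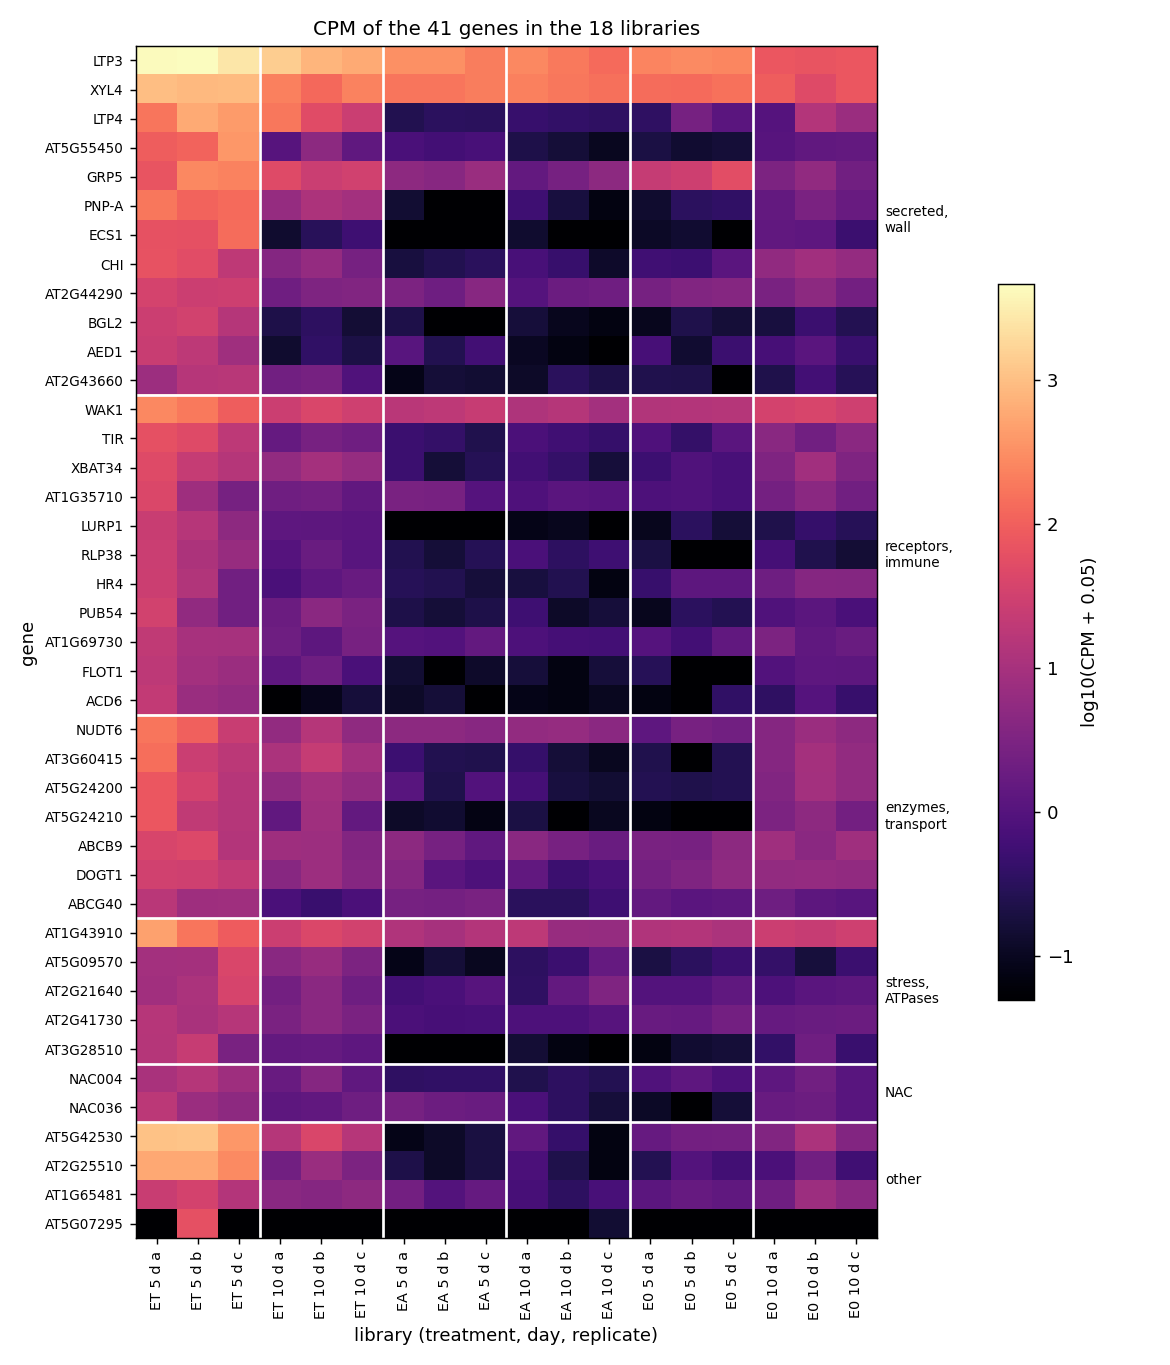
Level of each of the 41 genes (rows, grouped by annotated function) in each of the 18 libraries (columns), coloured by log10(CPM + 0.05). The 3 ET 5 d columns at the left are bright in nearly all rows, and AT5G07295 in the bottom row is bright only in ET 5 d b.

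The 12 genes for secreted and wall proteins held the most abundant members, with a median of 116 CPM in ET 5 d. LTP3 (AT5G59320, chr5:23928954-23929816 in TAIR10.1) encodes a lipid transfer protein, a small secreted protein that binds lipids. It had 4280.1, 4617 and 2619.7 CPM in the a, b and c libraries of ET 5 d and 1435, 806 and 599.8 CPM in ET 10 d. In the other media it had 318, 329 and 208 CPM in EA 5 d, 276, 191 and 134 CPM in EA 10 d, 244, 283 and 256 CPM in E0 5 d and 77, 70.6 and 78.7 CPM in E0 10 d. LTP3 was therefore well expressed everywhere, and its ratio to ET 10 d was only 4.05. Its neighbour LTP4 (AT5G59310, chr5:23924990-23925957) had 172, 608 and 421 CPM in ET 5 d and 179, 52.1 and 27.1 CPM in ET 10 d, and ET 10 d a overlapped with ET 5 d a. LTP4 stayed at or below 0.403 CPM in all 6 EA libraries, with 0.309, 2.53 and 1.1 CPM in E0 5 d and 0.959, 14 and 7.08 CPM in E0 10 d. The 2 genes thus shared the ET 5 d peak but differed in their level elsewhere.

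XYL4, a beta-xylosidase that acts on wall xylans, had the most even peak, with 975, 877 and 886 CPM in ET 5 d and 231, 126 and 241 CPM in ET 10 d. Its level was also high in the EA and E0 libraries, from 49.6 CPM in E0 10 d b to 222 CPM in EA 10 d a. Of its exon bases, 40.2% overlap AT5G64572 on the other strand, which itself averaged 39.3 CPM in ET 5 d and 10.6 CPM in E0 5 d. The strand setting of the counting is not given in the sources used here, so reads from overlapping genes cannot be assigned to a strand. GRP5, a glycine-rich wall protein, had 70.8, 269.8 and 237 CPM in ET 5 d and 49.2, 26.9 and 31.2 CPM in ET 10 d. Its highest other group was E0 5 d, with 23.3, 29.5 and 55.6 CPM in E0 5 d and 3.04, 5.58 and 2.24 CPM in E0 10 d. AT2G44290, of the lipid transfer and 2S albumin superfamily, also had E0 5 d as its highest other group. It had 36.2, 27.8 and 29 CPM in ET 5 d, and no library of the other groups passed 4.81 CPM.

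Several secreted members were almost silent outside ET 5 d. ECS1, a wall protein, had 64.2, 60.8 and 139 CPM in ET 5 d and 0.0863, 0.25 and 0.497 CPM in ET 10 d, and it was highest in library c. No count of ECS1 was found in the 3 EA 5 d libraries, and its highest value in any other library was 1.39 CPM, in E0 10 d a. BGL2, the beta-1,3-glucanase known as PR2 and a marker of the salicylic acid response, had 27.5, 33.5 and 14.6 CPM in ET 5 d and 0.173, 0.292 and 0.107 CPM in ET 10 d. The EA and E0 libraries had at most 0.449 CPM of BGL2, and the ratio to the highest other mean was 93.8. AT5G55450, another member of the lipid transfer superfamily, had 90.8, 113 and 389.8 CPM in ET 5 d and 1.04, 4.88 and 1.33 CPM in ET 10 d, again highest in library c. Of its exon bases 66.7% overlap AT5G08275 on the other strand, which averaged 6.02 CPM in ET 5 d and 1.44 CPM in ET 10 d.

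PNP-A, a secreted natriuretic peptide of plants, had 185, 110.4 and 135 CPM in ET 5 d and 6.22, 12.1 and 8.97 CPM in ET 10 d, with 1.49, 2.95 and 1.73 CPM in E0 10 d. The chitinase gene CHI (AT2G43570), whose product cleaves fungal wall polymers, had 67.7, 53.9 and 19 CPM in ET 5 d, 3.8, 6.13 and 2.59 CPM in ET 10 d and 5.49, 8.53 and 6.01 CPM in E0 10 d. AED1, an aspartyl protease of the apoplast, had 25.5, 18.1 and 8.35 CPM in ET 5 d and 0.0863, 0.333 and 0.16 CPM in ET 10 d. These secreted members differed in how far day 10 lay below day 5, with a day 5 mean 15.8 times the day 10 mean for PNP-A, 11.2 times for CHI and 89.6 times for AED1. AT2G43660, a small X8 domain protein, had 7.72, 15.6 and 15.9 CPM in ET 5 d and 2.24, 2.5 and 0.853 CPM in ET 10 d, and its libraries b and c exceeded a.

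**Figure D2:**
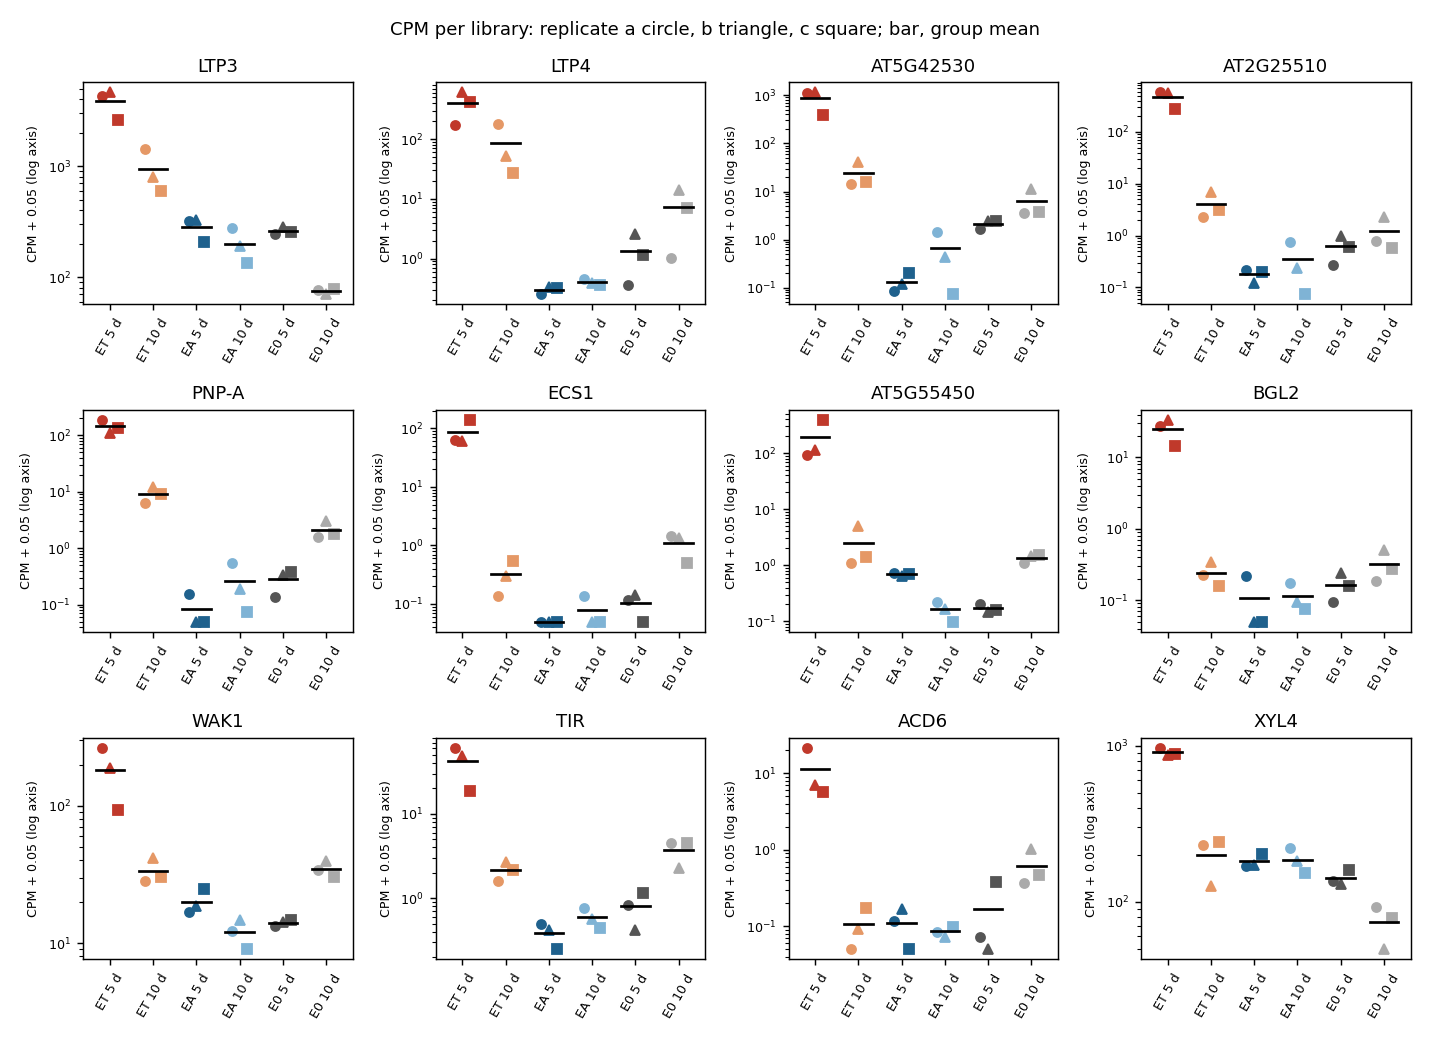
CPM + 0.05 (log axis) of 12 genes in each library, by group, with replicates a (circle), b (triangle) and c (square) and the group mean (bar). ET 5 d is the highest group in each panel, and the second highest is ET 10 d for LTP3, LTP4, XYL4, PNP-A, AT5G42530, AT2G25510 and AT5G55450 and E0 10 d for ECS1, BGL2, WAK1, TIR and ACD6.

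The 11 genes for receptors and immune signalling were expressed at lower levels, with a median of 14.9 CPM in ET 5 d. The exception was WAK1, a wall-associated receptor kinase that binds pectin, with 266, 187 and 92.7 CPM in ET 5 d and 28.1, 41.7 and 30.4 CPM in ET 10 d. It was also well expressed in E0 10 d, at 34.2, 39.7 and 30.1 CPM, and in E0 5 d, at 13.3, 14.2 and 14.6 CPM. TIR, with the Toll/interleukin-1 receptor domain of intracellular immune receptors, had 61, 49.1 and 18.4 CPM in ET 5 d and 1.55, 2.67 and 2.13 CPM in ET 10 d. HR4, a homolog of the powdery mildew resistance protein RPW8, had 27.2, 13.4 and 2.28 CPM in ET 5 d and 2.0, 4.11 and 3.89 CPM in E0 10 d, and ET 5 d c overlapped with E0 10 d. For TIR and HR4, 13.3% and 10.3% of the 76-base stretches of exon sequence occur elsewhere in the genome, and 4.01% do for WAK1. Counts of unique reads can miss reads from such stretches.

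ACD6, a membrane protein with ankyrin repeats that promotes salicylic acid signalling, had 21.6, 6.94 and 5.7 CPM in ET 5 d and 0, 0.0417 and 0.124 CPM in ET 10 d. Its neighbour XBAT34, an ankyrin repeat and RING finger gene, had 50.5, 23.4 and 14.6 CPM in ET 5 d and 5.7, 9.42 and 6.45 CPM in ET 10 d, so that the 2 nearby genes differed in the residual level on day 10. LURP1, required for basal defence against an oomycete, had 24.9, 15.7 and 5.12 CPM in ET 5 d and 1.3, 1.25 and 1.1 CPM in ET 10 d. The remaining receptor members were RLP38, a receptor-like protein, the leucine-rich repeat kinase AT1G35710, the wall-associated kinase family gene AT1G69730, the U-box gene PUB54 and the flotillin FLOT1, with means of 11.7 to 17.7 CPM in ET 5 d. PUB54 had 33, 5.59 and 2.28 CPM in ET 5 d and AT1G35710 had 42.4, 8.08 and 2.61 CPM, so for both a single library carried most of the mean. Without library a, neither gene had a mean of 10 CPM in ET 5 d. The same held for the receptor members RLP38, HR4, ACD6 and FLOT1, and for ABCG40 and NAC036 of the groups below.

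The 7 enzyme and transporter genes had a median of 37.4 CPM in ET 5 d. NUDT6, a hydrolase of NADH, had 177, 101 and 25.2 CPM in ET 5 d and 5.7, 15 and 5.17 CPM in ET 10 d. AT3G60415, of the phosphoglycerate mutase family, had 146, 26.6 and 17.6 CPM in ET 5 d and 11.2, 23.3 and 8.85 CPM in ET 10 d, and the groups overlapped. The alpha/beta hydrolase genes AT5G24200 and AT5G24210 lie 11.4 kb apart. AT5G24200 had 78.8, 34.1 and 15.5 CPM in ET 5 d and 5.27, 8.92 and 5.68 CPM in ET 10 d. AT5G24210 had 77.5, 19.9 and 14.9 CPM in ET 5 d and 1.38, 8.25 and 1.47 CPM in ET 10 d, and both genes ranked a above b above c in ET 5 d. The transporter ABCB9, of the P-glycoprotein family, had 39.2, 45.7 and 14.2 CPM in ET 5 d, and the glycosyltransferase DOGT1, which glucosylates the fungal toxin deoxynivalenol and brassinosteroids, had 32.2, 30.6 and 21.2 CPM. ABCG40, an ABC transporter of abscisic acid, had 16.8, 8.08 and 8.17 CPM in ET 5 d and 2.56, 2.4 and 2.77 CPM in EA 5 d, its next highest group.

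Among the stress markers and ATPases, AT1G43910, a P-loop NTPase, was the most abundant, with 482, 175 and 88 CPM in ET 5 d and 27.7, 42.7 and 33.7 CPM in ET 10 d. The second P-loop NTPase, AT3G28510, had 14.7, 24.5 and 2.78 CPM in ET 5 d and 1.47, 1.54 and 1.28 CPM in ET 10 d. AT2G21640, a marker of oxidative stress and of mitochondrial dysfunction, had 8.75, 11.4 and 37.4 CPM in ET 5 d and 2.33, 4.58 and 1.99 CPM in ET 10 d. AT5G09570, a Cox19-like protein with cysteine motifs of the mitochondrial import type, had 9.01, 9.53 and 41.6 CPM in ET 5 d and 4.32, 6.71 and 3.13 CPM in ET 10 d. Both had their highest value in library c, where all 11 receptor and immune signalling members were lowest. Library c was also lowest for 59.7% of the 12088 genes with 10 CPM in ET 5 d and for 28 of the 41 genes. AT2G41730, annotated with a calcium-binding site, had an even peak of 15.7, 10.9 and 15.7 CPM in ET 5 d, against 2.94, 4.58 and 2.91 CPM in ET 10 d.

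The transcription factors were NAC004 and NAC036, 2 of the 83 listed genes of the plant-specific NAC family. NAC004 had 10.6, 14.6 and 7.73 CPM in ET 5 d and 1.73, 4.04 and 1.35 CPM in ET 10 d. NAC036 had 17.8, 7.35 and 5.04 CPM in ET 5 d and 1.21, 1.38 and 2.02 CPM in ET 10 d, with 2.56, 1.98 and 1.77 CPM in EA 5 d. They had the lowest peaks of the 41 genes. Uncharacterized genes, in contrast, were 2 of the 4 most abundant members. AT5G42530 had 1092, 1144 and 381 CPM in ET 5 d and 14.6, 41.1 and 15.4 CPM in ET 10 d, and the ET 5 d mean was 36.8 times that of ET 10 d. AT2G25510 had 581, 572 and 280.5 CPM in ET 5 d and 2.24, 6.96 and 3.07 CPM in ET 10 d, a ratio of 117. The third, AT1G65481, had 24.9, 35.1 and 14 CPM in ET 5 d and 2.13, 7.44 and 4.49 CPM in E0 10 d. AT5G07295, the long non-coding RNA, had 60.7 CPM in ET 5 d b and no count in ET 5 d a or c, so its ratio of 623 rests on 1 library.

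The peak was uneven between the 3 ET 5 d libraries. The highest library exceeded the lowest by a median of 3.39-fold over the genes with a count in all 3 libraries, against 1.52-fold over the 12088 genes with 10 CPM in ET 5 d, and the values ran from 1.11-fold for XYL4 to 16.3-fold for AT1G35710. Library a was highest for 26 of the 41 genes, b for 10 and c for 5, against shares of 50.6%, 24.1% and 25.3% of the 12088 genes. All 11 receptor and immune signalling genes were highest in library a, as were 6 of the 7 enzyme and transporter genes. The secreted genes were divided, with 5 highest in a, 4 in b and 3 in c. Single libraries of ET 5 d reached 4 times the mean of each other group for 36 genes in a, 32 in b and 22 in c, and 17 genes did so in each of the 3.

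To look at the peak in a library that had no part in the choice, genes were selected with 2 of the ET 5 d libraries and read in the third. Selection without a gave 33 genes, of which 22 were at least 4 times every other group mean in a, against 0.312% of all genes with 10 CPM in the other ET 5 d libraries. Without b, 39 genes were selected and 26 reached this limit in b, against 0.256% of all. Without c, 44 genes were selected and 20 reached it in c, against 0.338%. In the library left out, 31 of 33, 38 of 39 and 37 of 44 were above all other group means. The groups compared with were the same in the choice and in the reading, so their low values were not read independently.

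**Figure D3:**
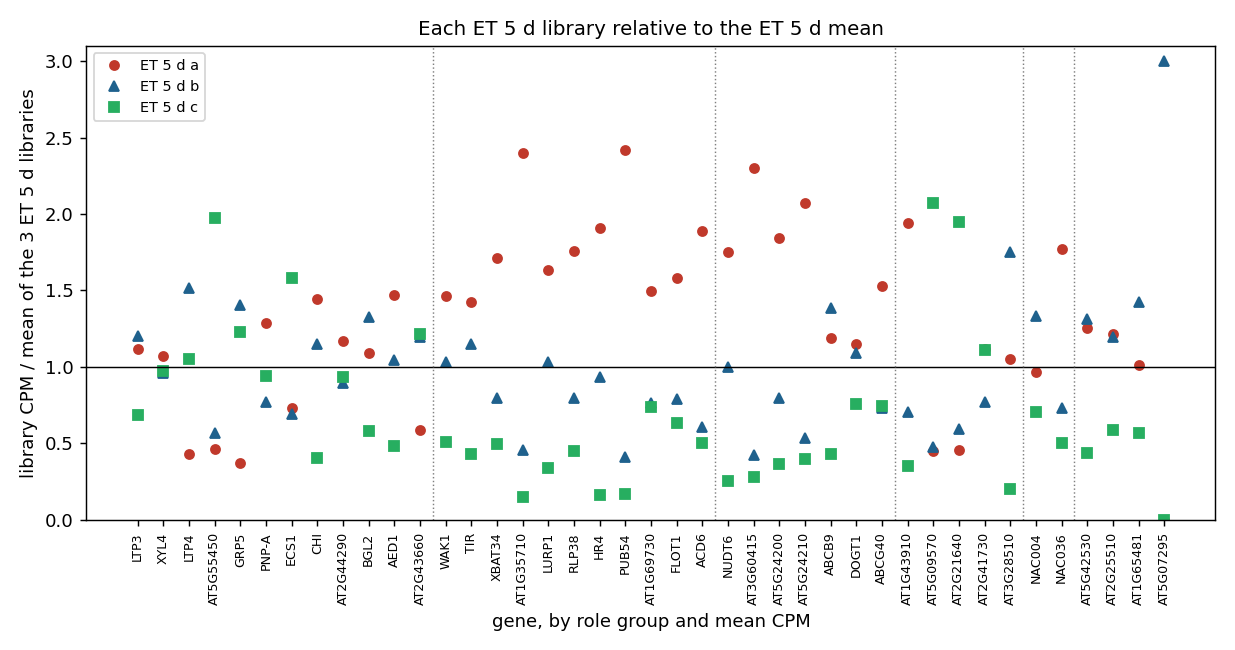
CPM of each ET 5 d library divided by the mean of the 3 (vertical axis) for the 41 genes, ordered by function (dotted lines) and mean CPM. Library a is highest for the 11 receptor and immune signalling genes, and c is highest for AT5G55450, ECS1, AT2G43660, AT5G09570 and AT2G21640.

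Near the limit, the members with the smallest ratios were AT2G41730 and LTP3 with 4.05 each, XBAT34 with 4.1, AT5G09570 with 4.25 and ABCG40 with 4.28. Just outside it were PBS3, which makes a precursor of salicylic acid, with 3.98, WRKY38 with 3.81, AT4G21620 with 3.79, AT3G28580 with 3.78 and GRP23 with 3.76. A limit of 4 thus cut through a range with no gap. With the same rule, 50 genes peaked in ET 10 d, 0 in EA 5 d, 39 in EA 10 d, 21 in E0 5 d and 131 in E0 10 d. ET 5 d was at least 4 times the EA and E0 means for 98 genes, of which 57 were not selected because of their level in ET 10 d, and 16 of them were at least as high in ET 10 d as in ET 5 d.

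The 41 genes lay on all chromosomes, with 10 on chromosome 1, 11 on 2, 6 on 3, 3 on 4 and 11 on 5. LTP4 and LTP3 were direct neighbours, transcribed away from each other with 3.0 kb between them. AT5G24200 and AT5G24210 had 2 genes of the table between them, XBAT34 and ACD6 had 5 genes over 20.3 kb, and CHI and AT2G43660 had 10 genes over 26.1 kb. No other pair lay within 30 kb. Of the 40 protein-coding members, 5 had a single exon, or 12.5% against 18.9% of 27444 protein-coding nuclear genes, and their median coding length was 843 bases against 1047. For 33 of the 41 genes no 76-base stretch of exon sequence occurred elsewhere in the genome, and 36 had no exon overlap with a gene on the other strand.

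The bases just before the annotated start are shown for 8 genes, the neighbours LTP3 and LTP4 and the 6 members with at least 2 TTGAC cores and no other gene in the window. Each line gives 250 bases of the RefSeq TAIR10.1 sequence, 5′ to 3′ in the direction of the gene, with TTGAC or its complement GTCAA in capitals. LTP3 lies on the plus strand (chr5:23928704-23928953), LTP4 on the minus strand (chr5:23925958-23926207), AT5G24210 on plus (chr5:8216941-8217190), CHI on minus (chr2:18077518-18077767), NUDT6 on plus (chr2:1543070-1543319), AT1G35710 on plus (chr1:13220221-13220470), ABCB9 on plus (chr4:10021536-10021785) and AT2G21640 on plus (chr2:9254128-9254377).
LTP3 promoter: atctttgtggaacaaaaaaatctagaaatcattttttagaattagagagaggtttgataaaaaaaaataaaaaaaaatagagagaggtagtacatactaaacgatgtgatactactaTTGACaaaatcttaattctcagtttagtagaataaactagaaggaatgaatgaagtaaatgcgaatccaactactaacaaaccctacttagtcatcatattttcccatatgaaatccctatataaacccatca
LTP4 promoter: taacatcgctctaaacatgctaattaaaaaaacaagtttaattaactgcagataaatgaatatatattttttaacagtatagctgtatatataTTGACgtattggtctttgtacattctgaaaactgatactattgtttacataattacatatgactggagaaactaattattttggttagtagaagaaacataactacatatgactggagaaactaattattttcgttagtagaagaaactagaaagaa
AT5G24210 promoter: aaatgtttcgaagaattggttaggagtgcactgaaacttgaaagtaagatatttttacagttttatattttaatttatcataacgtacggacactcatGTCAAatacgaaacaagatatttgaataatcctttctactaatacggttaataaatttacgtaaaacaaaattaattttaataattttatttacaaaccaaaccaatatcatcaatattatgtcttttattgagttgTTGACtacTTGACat
CHI promoter: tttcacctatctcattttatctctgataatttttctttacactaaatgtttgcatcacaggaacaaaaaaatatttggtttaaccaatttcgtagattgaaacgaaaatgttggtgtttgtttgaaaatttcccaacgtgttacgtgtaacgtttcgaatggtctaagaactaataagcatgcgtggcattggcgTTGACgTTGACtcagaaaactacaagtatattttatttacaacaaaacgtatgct
NUDT6 promoter: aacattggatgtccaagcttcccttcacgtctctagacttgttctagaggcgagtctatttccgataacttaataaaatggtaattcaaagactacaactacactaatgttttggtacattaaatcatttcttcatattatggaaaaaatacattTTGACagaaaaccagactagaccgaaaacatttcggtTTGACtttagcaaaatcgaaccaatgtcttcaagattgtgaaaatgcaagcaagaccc
AT1G35710 promoter: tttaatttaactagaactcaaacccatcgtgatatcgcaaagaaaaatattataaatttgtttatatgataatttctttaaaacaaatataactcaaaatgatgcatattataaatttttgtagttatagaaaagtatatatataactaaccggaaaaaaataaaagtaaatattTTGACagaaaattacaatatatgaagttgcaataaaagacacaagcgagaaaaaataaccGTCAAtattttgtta
ABCB9 promoter: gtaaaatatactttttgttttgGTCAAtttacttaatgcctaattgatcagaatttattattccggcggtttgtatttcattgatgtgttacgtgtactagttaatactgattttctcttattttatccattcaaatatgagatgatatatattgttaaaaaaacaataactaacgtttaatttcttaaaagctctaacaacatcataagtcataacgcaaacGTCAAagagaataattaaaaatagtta
AT2G21640 promoter: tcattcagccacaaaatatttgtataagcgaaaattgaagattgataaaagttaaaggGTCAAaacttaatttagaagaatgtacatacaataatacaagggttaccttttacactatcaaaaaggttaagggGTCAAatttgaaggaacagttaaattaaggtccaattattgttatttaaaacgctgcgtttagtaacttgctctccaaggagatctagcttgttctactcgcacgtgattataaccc

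In CHI the 2 cores follow each other with 1 base between them, starting 55 and 49 bases before the gene, and in AT5G24210 the last cores of 3 start 15 and 7 bases before it. The core TTGAC was found on either strand in 22 of 40 promoters, or 55.0%, against 44.9% of the promoters of all 27444 protein-coding genes of the table, and 20.0% against 14.1% held at least 2. TGACG was found in 15 promoters, or 37.5% against 18.6% of all. Both motifs occurred in 12 promoters, and in 9 they shared bases as TTGACG. The heat shock element core GAANNTTC was found in 20.0% against 9.55%, ACGTG in 35.0% against 22.9%, and the G box CACGTG in 5.00% against 6.49%. CCGAC was found in 10.0% against 12%, GCCGCC in 5.00% against 1.87%, CATGCA in 5.00% against 8.43% and the auxin response element TGTCTC in 5.00% against 10.9%. In the nearest 150 bases TGACG was found in 22.5% against 12.5% of all, TTGAC in 42.5% against 30.7% and ACGTG in 17.5% against 16.5%. These shares describe letters in a window of 40 promoters. Their differences from all promoters were not tested, and no factor's binding was measured.

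Tests between the groups that the selection left free came from edgeR's quasi-likelihood fit, and p-values were adjusted by Benjamini-Hochberg over all 23539 genes tested, a gene being called at an adjusted p under 0.05. Of the 41 genes, 40 passed the filter on low counts, and AT5G07295 was not tested. BGL2 passed only through the ET 5 d libraries. It was called in none of the comparisons below, so that without it each count of called genes stands as given, out of 39 genes. The shares, medians and signs below still include BGL2. The fit covered all 18 libraries, with 3 biological replicates in each of the 6 groups. The p-values thus rest on a spread between replicates that was estimated over all groups, the ET 5 d libraries included. On day 10, calls between TSA-treated and control explants, counted in both directions, were no more frequent among these genes than among all genes. Most of the calls among the 40 genes were higher in the TSA culture, and 26 genes were not called. Called in ET 10 d against E0 10 d were 12 genes as higher, or 30% of the 40 against 18% of all genes, and 2 as lower, or 5.00% against 20.0%. The median log2 fold change was 0.47 over the 40 genes and 0.01 over all genes tested.

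Secreted and wall genes made up 6 of the 12 genes called higher. LTP3 had 1435, 806 and 599.8 CPM in ET 10 d and 77, 70.6 and 78.7 CPM in E0 10 d, a log2 fold change of 3.70 ± 0.34 (SE; adjusted p = 7.55e-07). The groups did not overlap, and neither did they for GRP5, with 49.2, 26.9 and 31.2 CPM in ET 10 d and 3.04, 5.58 and 2.24 CPM in E0 10 d and a log2 fold change of 3.38 ± 0.57 (SE; adjusted p = 1.95e-04). The others were LTP4 at 3.62 ± 0.84 (SE; adjusted p = 0.00275), AT2G43660 at 2.65 ± 0.60 (SE; adjusted p = 0.00231), PNP-A at 2.25 ± 0.48 (SE; adjusted p = 0.00137) and XYL4 at 1.47 ± 0.24 (SE; adjusted p = 1.36e-04). The largest log2 fold change was that of the Cox19-like gene AT5G09570, with 4.32, 6.71 and 3.13 CPM in ET 10 d and 0.373, 0.128 and 0.445 CPM in E0 10 d, at 3.79 ± 0.76 (SE; adjusted p = 8.59e-04). LURP1, RLP38, AT5G42530, AT2G25510 and AT2G41730 were also higher, by log2 fold changes of 2.28, 2.09, 2.02, 2.06 and 1.01.

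ACD6 and ABCG40 went the other way on day 10. ACD6 had 0, 0.0417 and 0.124 CPM in ET 10 d and 0.32, 0.962 and 0.411 CPM in E0 10 d, a log2 fold change of -2.64 ± 0.89 (SE; adjusted p = 0.0271). ABCG40 had 0.691, 0.417 and 0.746 CPM in ET 10 d and 2.05, 1.22 and 1.08 CPM in E0 10 d, at -1.20 ± 0.37 (SE; adjusted p = 0.017). The groups of ABCG40 and of ACD6 did not overlap. Without ET 10 d b, 9 genes were called higher and none lower. ACD6, ABCG40, RLP38, AT2G25510 and AT5G42530 lost their calls then, and each of them also lost it without at least 1 E0 10 d library.

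**Figure D4:**
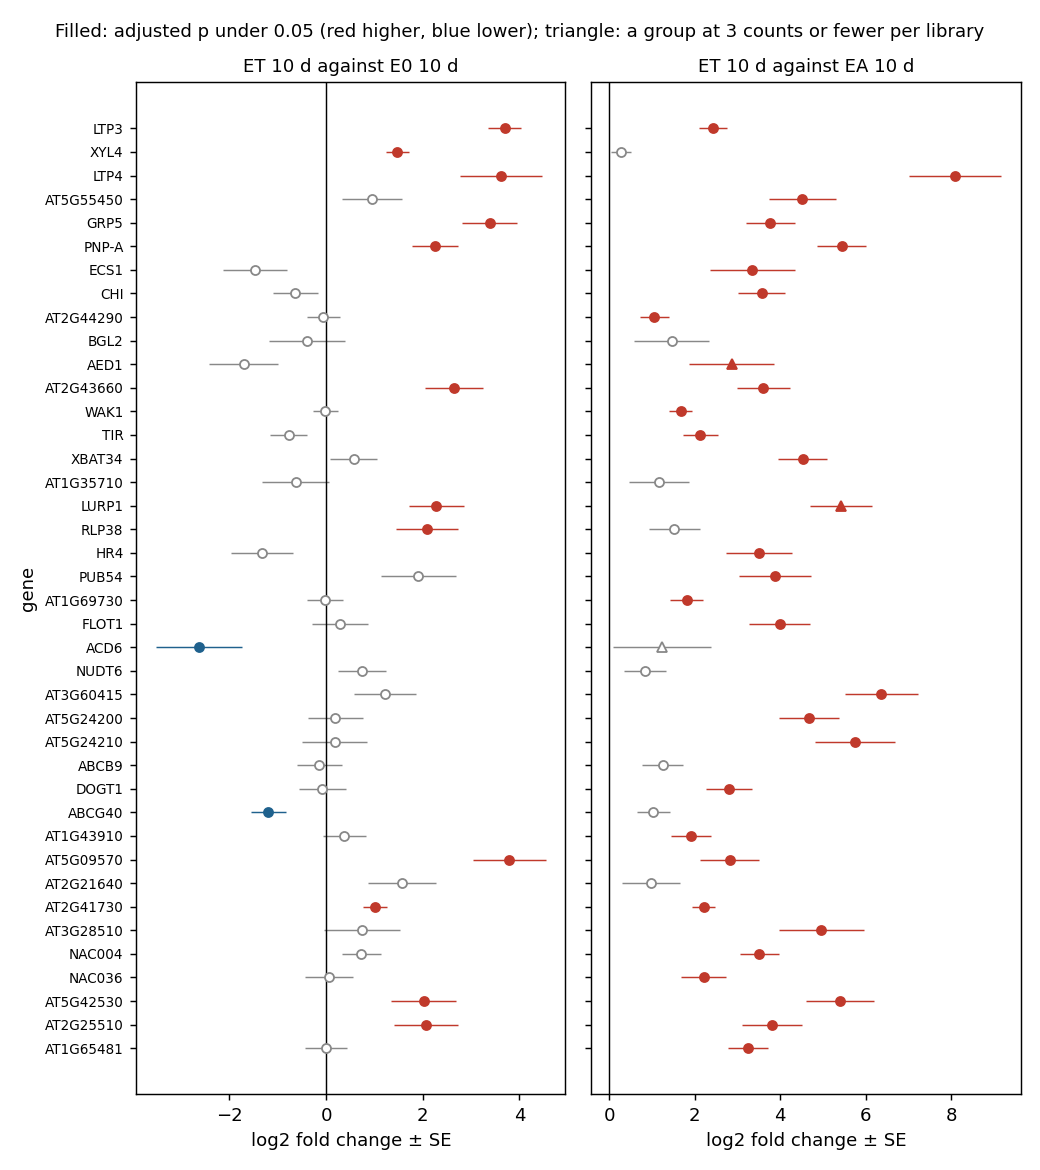
log2 fold change ± SE of 40 genes (rows, grouped by function) for ET 10 d against E0 10 d (left) and ET 10 d against EA 10 d (right), filled where called and drawn as triangles where a group lay at the floor. The left panel has 12 genes called higher and 2 lower, and the right panel has 31 called higher and all 40 points above 0.

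Between the inducing media on day 10, most of the genes were called higher in the TSA culture. Called in ET 10 d against EA 10 d were 31 genes as higher, or 77.5% of the 40 against 17.6% of all genes, and 0 as lower, against 14.4%. All 40 log2 fold changes, that of BGL2 included, were above 0. The median was 3.05 against -0.04 over all genes, and 3.03 with genes at the detection floor set to their bound. LTP4 had 179, 52.1 and 27.1 CPM in ET 10 d and 0.403, 0.341 and 0.317 CPM in EA 10 d, a log2 fold change of 8.09 ± 1.07 (SE; adjusted p = 3.06e-05). AT3G60415 followed with 11.2, 23.3 and 8.85 CPM in ET 10 d and 0.385, 0.114 and 0.0487 CPM in EA 10 d, at 6.36 ± 0.85 (SE; adjusted p = 3.51e-05). The groups did not overlap in either gene. The hydrolase gene AT5G24210 was at 5.75 ± 0.94 (SE; adjusted p = 2.18e-04) and PNP-A at 5.44 ± 0.58 (SE; adjusted p = 3.23e-06). LURP1, whose EA 10 d libraries lay at the floor, was at least 18.8-fold higher. The 9 genes without a call were XYL4, BGL2, AT1G35710, RLP38, ACD6, NUDT6, ABCB9, ABCG40 and AT2G21640. The calls of ECS1, AT2G44290 and AED1 were lost without at least 3 of the 6 libraries in turn.

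On day 10, most of the genes were called lower in the auxin culture than in the control culture, and LTP3 and XYL4 higher. Called in EA 10 d against E0 10 d were 29 genes as lower, or 72.5% of the 40 against 25.0% of all genes, and 2 as higher, or 5.00% against 24.2%. The median log2 fold change was -2.51, against 0.09 over all genes, and -2.19 with floor genes at their bound. AT5G24210 had 0.158, 0 and 0.0487 CPM in EA 10 d and 3.12, 5.0 and 2.35 CPM in E0 10 d, a log2 fold change of -5.57 ± 0.94 (SE; adjusted p = 1.23e-04). AT3G60415 was at -5.14 ± 0.83 (SE; adjusted p = 8.89e-05), HR4 at -4.84 ± 0.78 (SE; adjusted p = 8.01e-05) and ECS1 at -4.82 ± 0.86 (SE; adjusted p = 3.24e-04). AED1, at the floor in EA 10 d, was at least 11.1-fold lower and ACD6 at least 8.74-fold lower. These lower genes came from every function group, with 9 of the 11 receptor members and 7 of the 12 secreted ones among them. LTP3 and XYL4 were higher, LTP3 with 276, 191 and 134 CPM in EA 10 d and 77, 70.6 and 78.7 CPM in E0 10 d, at 1.27 ± 0.31 (SE; adjusted p = 0.00296), and XYL4 at 1.20 ± 0.24 (SE; adjusted p = 5.08e-04). The calls of AT1G35710 and ABCB9 were each lost without 4 of the 6 libraries in turn, and that of AT2G44290 without 2. This comparison and that of ET 10 d against EA 10 d share the EA 10 d libraries, so their values are not independent.

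On day 5, fewer genes differed between EA and E0. Called in EA 5 d against E0 5 d were 7 genes as lower, or 17.5% of the 40 against 20.8% of all genes, and 1 as higher, or 2.5% against 19.0%. The median log2 fold change was -0.53 over the 40 genes, against 0.02 over all, and -0.08 over 37 genes with floor genes at their bound. GRP5 had 5.13, 4.12 and 6.95 CPM in EA 5 d and 23.3, 29.5 and 55.6 CPM in E0 5 d, a log2 fold change of -2.93 ± 0.55 (SE; adjusted p = 4.32e-04). AT5G42530 was at -4.68 ± 1.05 (SE; adjusted p = 0.00187), HR4 at -2.34 ± 0.83 (SE; adjusted p = 0.0332), NAC004 at -1.81 ± 0.47 (SE; adjusted p = 0.00567) and AT2G41730 at -1.66 ± 0.28 (SE; adjusted p = 1.69e-04). TIR was at -1.39 ± 0.50 (SE; adjusted p = 0.0361), and LURP1 was called lower although both groups lay at the detection floor, so no fold is given. NAC036, with 2.56, 1.98 and 1.77 CPM in EA 5 d and 0.0661, 0 and 0.11 CPM in E0 5 d, was at least 9.33-fold higher (adjusted p = 9.51e-05 by edgeR). With the 6 libraries left out in turn, HR4 lost its call without 5, every EA 5 d library among them, and TIR without 4. LURP1 lost it without E0 5 d b, and E0 5 d b and c are shallow. DESeq2's Wald test called 16 genes and a fit of these 6 libraries alone 13, for which the share of all genes called was not taken.

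Part of the genes rose with age in the control culture. Called in E0 10 d against E0 5 d were 14 genes as higher, or 35.0% of the 40 against 10.4% of all genes, and 3 as lower, or 7.5% against 7.10%. The median log2 fold change was 1.47, against 0.02 over all genes, and 1.37 with floor genes at their bound. AT3G60415 had 4.08, 9.56 and 5.74 CPM in E0 10 d and 0.198, 0 and 0.22 CPM in E0 5 d, a log2 fold change of 5.19 ± 0.99 (SE; adjusted p = 0.00196). AT5G24200 was at 4.72 ± 0.83 (SE; adjusted p = 0.00107), CHI at 3.31 ± 0.58 (SE; adjusted p = 0.00102), XBAT34 at 2.98 ± 0.60 (SE; adjusted p = 0.00284) and TIR at 2.25 ± 0.44 (SE; adjusted p = 0.00218). The hydrolase gene AT5G24210, with 3.12, 5.0 and 2.35 CPM in E0 10 d and a single count in the E0 5 d libraries, was at least 15.5-fold higher. NAC036 was at least 6.92-fold, ECS1 at least 4.6-fold and AT3G28510 at least 4.27-fold higher. WAK1 had 34.2, 39.7 and 30.1 CPM in E0 10 d and 13.3, 14.2 and 14.6 CPM in E0 5 d, at 1.25 ± 0.26 (SE; adjusted p = 0.00375). The lower genes were GRP5 at -3.39 ± 0.57 (SE; adjusted p = 7.62e-04), LTP3 at -1.85 ± 0.32 (SE; adjusted p = 8.50e-04) and XYL4, with 93.1, 49.6 and 78.4 CPM in E0 10 d and 136, 131 and 159 CPM in E0 5 d (adjusted p = 0.0074). These 3 wall and lipid transfer genes had their lowest group mean, or for GRP5 nearly so, in E0 10 d. With libraries left out in turn, AT5G55450 lost its call without 5 of the 6, AT3G28510 without 4 and AT1G65481 without 3. ECS1 and FLOT1 lost it without 2 each and PNP-A without 1. In a fit without the ET 5 d libraries, 22 genes were called in place of 17, and the share of all genes called in that fit was not taken.

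**Figure D5:**
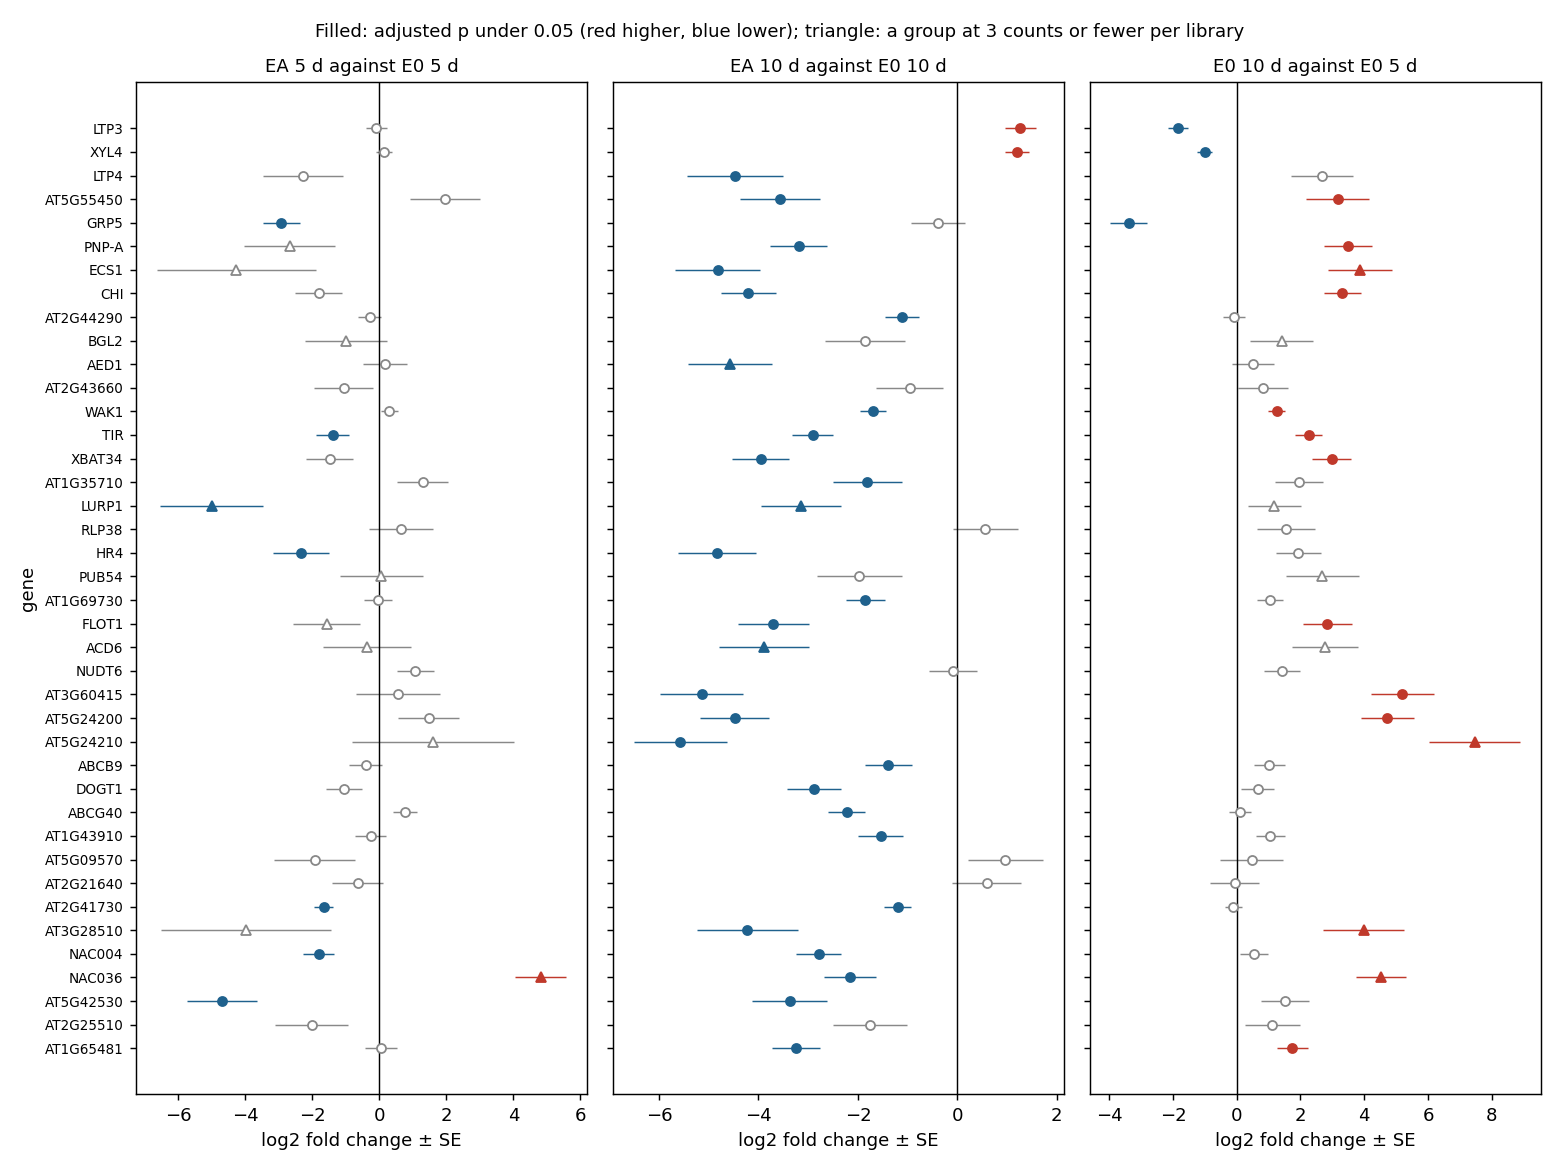
log2 fold change ± SE of 40 genes (rows, grouped by function) for EA 5 d against E0 5 d, EA 10 d against E0 10 d and E0 10 d against E0 5 d, filled where called and drawn as triangles where a group lay at the floor. From left to right, 1, 2 and 14 genes are called higher and 7, 29 and 3 lower; the panels share E0 libraries.

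In the auxin culture itself, 5 of these genes were called between the days. DESeq2's Wald test called 10 and a fit of these 6 libraries alone 3, and 12 genes had an unadjusted p under 0.05 in edgeR. For these alternatives the share of all genes was not taken. Called in EA 10 d against EA 5 d were 4 genes as lower, or 10.0% of the 40 against 5.20% of all genes, and 1 as higher, or 2.5% against 7.85%. ABCG40 had 0.263, 0.273 and 0.487 CPM in EA 10 d and 2.56, 2.4 and 2.77 CPM in EA 5 d, a log2 fold change of -2.90 ± 0.37 (SE; adjusted p = 1.06e-04). NAC036 was at -2.46 ± 0.52 (SE; adjusted p = 0.00481) and AT1G65481 at -1.56 ± 0.47 (SE; adjusted p = 0.0385), and AED1, at the floor in EA 10 d, was at least 9.38-fold lower. AT5G09570 was higher, with 0.298, 0.454 and 1.51 CPM in EA 10 d and 0.0342, 0.116 and 0.0498 CPM in EA 5 d, at 3.37 ± 0.95 (SE; adjusted p = 0.027), and it lost the call without EA 10 d c or without any EA 5 d library. AT1G65481 lost its call without EA 5 d a or c or without any EA 10 d library.

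The effect of auxin relative to E0 differed between the days for 9 genes, tested as the interaction in the same edgeR fit. DESeq2's Wald test called 16, for which the share of all genes was not taken. By edgeR the effect was lower on day 10 for 8 genes, or 20.0% of the 40 against 4.57% of all genes. It was higher for 1, or 2.5% against 4.24%. The smallest p-values were those of NAC036, ABCG40 with a difference in log2 fold change of -3.00 ± 0.51 (SE; adjusted p = 0.00193), WAK1 with -1.99 ± 0.37 (SE; adjusted p = 0.00343), AT5G24200 with -5.95 ± 1.11 (SE; adjusted p = 0.00371) and AT1G65481 with -3.30 ± 0.67 (SE; adjusted p = 0.00595). For WAK1 the effect was -1.69 on day 10 and 0.30 on day 5. For ABCG40 it was -2.23 on day 10 and 0.77 on day 5. GRP5 was called in the other direction, with -0.39 on day 10 and -2.93 on day 5 (adjusted p = 0.0476), and it lost the call without 9 of the 12 libraries in turn.

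Genes of the salicylic acid pathway outside the selection were read from a list of 26 genes in the table, of which BGL2 was the only one selected. Of the 24 other genes tested, 14 were higher and 2 lower in ET 5 d against E0 5 d, where 23.8% and 21.5% of all genes were called. In ET 5 d against ET 10 d, 11 of the 24 were higher and 0 lower, where 8.53% and 12% of all genes were called. In ET 5 d against EA 5 d, 17 were higher and 1 lower, where 20.1% and 16.4% of all genes were called. The selection had removed any list gene that passed its limits of level and ratio from this count, here BGL2. ICS1, which makes the precursor of salicylic acid, had 84.1, 31.6 and 22.6 CPM in ET 5 d, 10.6, 22.4 and 7.57 CPM in ET 10 d and 3.04, 4.12 and 3.96 CPM in E0 5 d. WRKY70, a factor of salicylic acid signalling, had 48.6, 25.8 and 14.6 CPM in ET 5 d, 10.3, 15.5 and 19.3 CPM in ET 10 d and 0.595, 0.749 and 1.1 CPM in E0 5 d. Library a was highest for 18 of the 20 list genes outside the selection with a mean of at least 1 CPM in ET 5 d, ICS1 and WRKY70 included. PR1, the marker most used for this pathway, reached only 2.19, 1.66 and 0.133 CPM in ET 5 d and was at 0 in ET 10 d.

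Of the same 24 genes, 5 were higher and 8 lower in ET 10 d against E0 10 d, where 18% and 20.0% of all genes were called. In EA 5 d against E0 5 d, 0 were higher and 9 lower, where the shares were 19.0% and 20.8%, and in EA 10 d against E0 10 d 0 were higher and 20 lower, where they were 24.2% and 25.0%. In ET 10 d against EA 10 d, 11 were higher and 0 lower, beside shares of 17.6% and 14.4%, and in E0 10 d against E0 5 d 10 were higher and 0 lower, beside 10.4% and 7.10%.

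Other lists were read in ET 5 d against E0 5 d, ET 10 d and EA 5 d, and the 3 counts below follow this order. The shares of all genes called in these comparisons are those given for the salicylic acid list. Lists of gene families were matched by gene symbol, which can leave out members under other symbols. Of 10 tryptophan synthesis genes, 8, 5 and 6 were higher and none was lower in any of them. Of 10 camalexin and indolic phytoalexin genes, 6, 0 and 7 were higher and 2, 2 and 1 lower. No gene of the tryptophan or camalexin lists was selected, and no camalexin gene was called higher against ET 10 d. Among 10 mitochondrial stress genes besides AT2G21640, 4, 5 and 4 were higher and 1, 0 and 1 lower. Of 34 cysteine-rich receptor-like kinases, 11, 8 and 9 were higher and 10, 2 and 6 lower. Among 59 WRKY factors, 16, 6 and 20 were higher and 15, 6 and 10 lower. No WRKY factor was selected, and the family was called in both directions in each comparison. Of 67 NAC factors besides NAC004 and NAC036, 20, 7 and 20 were higher and 19, 18 and 14 lower. Of 20 ERF factors, 4, 0 and 9 were higher and 3, 7 and 2 lower. Of 9 jasmonate genes, 0, 1 and 5 were higher and 4, 3 and 1 lower. Jasmonate, a second defence hormone, thus had more of its genes lower than higher against E0 5 d and ET 10 d, and more higher than lower against EA 5 d. Among 47 glutathione transferases, 10, 12 and 14 were higher and 15, 6 and 4 lower. Of 53 family 1 glycosyltransferases with a UGT symbol, which leaves out DOGT1, 6, 15 and 22 were higher and 20, 6 and 7 lower. Members of these families of detoxifying enzymes were called lower more often than higher against E0 5 d, and higher more often than lower against ET 10 d and EA 5 d. Of 180 cytochrome P450 genes, 22, 14 and 41 were higher and 97, 70 and 50 lower. Of 37 heat shock proteins and factors, 10, 5 and 8 were higher and 7, 6 and 4 lower. The P450 family had more genes lower than higher in each comparison. Of 8 genes of folding stress in the endoplasmic reticulum, 2, 1 and 4 were higher and none was lower in any of them. Among 9 defensins, 2, 2 and 3 were higher and 1, 1 and 0 lower. Of 4 NADPH oxidases, 0, 0 and 2 were higher and 3, 3 and 1 lower. Of 6 epoxycarotenoid dioxygenases of abscisic acid synthesis, 0, 0 and 2 were higher and 2, 2 and 1 lower.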

How the data were processed

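RNA of 18 libraries was depleted of ribosomal RNA, prepared with the ScriptSeq kit and sequenced as read pairs. The authors trimmed the reads, removed remaining ribosomal reads, aligned the rest to TAIR10 with STAR and deposited raw counts, 1 whole number per gene and library, from reads with a single alignment. The strand setting and annotation release are not given in the sources used here. The 1385 structural RNA rows without a locus code held 0.695% of the counts and stayed in the library totals used for CPM.

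The members and lists were chosen with earlier results of these data known. Software was edgeR 4.0.16 under R 4.3.3 (filterByExpr on 6 groups, TMM, 1 quasi-likelihood fit over all 18 libraries, Benjamini-Hochberg adjustment per contrast) with limma 3.58.1, and DESeq2 1.42.0 as an alternative; the procedure was tested on simulated data. Other alternatives were library totals, DESeq2's size factors, no filter, a fold limit, fits of the groups compared, fits without ET 5 d, a replicate block and each library left out. Where a group lay at the floor, its fold was taken from the mean CPM that 3 counts per library make up. Genes were named by level in ET 5 d, ratio, distance to the limit, list membership, transcription factor function, neighbourhood and the largest called changes of each contrast, and the remaining members for completeness. Locus codes were matched to the RefSeq TAIR10.1 annotation, from which coordinates, exon overlaps and promoter sequences were read; the deposited table holds no coordinates, so none were carried between builds.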

Additional observations from a re-analysis of the deposited data

Results flagged for a closer look

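The effect of 2,4-D, taken as EA against E0, differed between day 10 and day 5 by edgeR's interaction test for 9 of the 40 genes tested. The difference in log2 fold change, day 10 minus day 5, was -6.97 for NAC036, -3.00 for ABCG40, -1.99 for WAK1, -5.95 for AT5G24200, -3.30 for AT1G65481, -4.73 for AED1, -5.54 for AT5G55450, -5.70 for AT3G60415 and 2.54 for GRP5. NAC036 had E0 5 d at the detection floor and AED1 had EA 10 d there, so the size of their fitted differences depends on the prior count of the fit. AT3G60415 lost the call without E0 5 d a or without EA 5 d a, and GRP5 (adjusted p = 0.0476) lost it without 9 of the 12 libraries in turn. Groups of 3 libraries were not tested for single outlying libraries.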

How the results depend on the processing

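The number of selected genes was 27 at a fold limit of 5, 25 at a limit of 20 CPM and 10 where every ET 5 d library had to be 4 times every other library, and it ran from 33 to 52 with each library left out, 33 without ET 5 d a and 52 without EA 10 d c. Counts of called genes moved by over 1.5 times under DESeq2's Wald test, to 16 for EA 5 d against E0 5 d, 10 for EA 10 d against EA 5 d and 16 for the difference between days, and in fits of only the groups compared, to 13 for EA 5 d against E0 5 d and 3 for EA 10 d against EA 5 d. The cause was not tested. The share of all genes called was taken only for the main fit, so a fit that calls more genes everywhere cannot be told apart here. With single libraries left out, 9 to 14 genes were called in ET 10 d against E0 10 d (9 without ET 10 d b), 6 to 10 in EA 5 d against E0 5 d, 29 to 32 in EA 10 d against E0 10 d, 29 to 31 in ET 10 d against EA 10 d, 12 to 17 in E0 10 d against E0 5 d, 3 to 5 in EA 10 d against EA 5 d (3 without EA 5 d a or c) and 7 to 11 for the difference between days. In 150 bases of promoter, TGACG was found in 22.5% against 12.5% of all promoters and ACGTG in 17.5% against 16.5%. Of the 312 alternative values none reversed, and 127 counts and shares and 170 values of single genes kept their direction and side of the threshold or moved little; HR4 in EA 5 d against E0 5 d lost its call with library totals (-2.13), and AT1G65481 in EA 10 d against EA 5 d with the replicate block (-1.56).

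Pairing by the letters a, b and c was not part of the main fit. Correlations of same-letter deviations ran from -0.13 to 0.19, not above 0.1 for every letter in any comparison. They were positive for every letter in EA 10 d against E0 10 d and EA 10 d against EA 5 d. Whether the letters pair the samples cannot be decided from these values. With the letter as a replicate block, 16, 9, 34, 34, 19, 4 and 11 genes were called in ET 10 d against E0 10 d, EA 5 d against E0 5 d, EA 10 d against E0 10 d, ET 10 d against EA 10 d, E0 10 d against E0 5 d, EA 10 d against EA 5 d and the difference between days. Depth limits the genes under 1 CPM in EA and E0, mainly in E0 5 d, where 3 counts in library c correspond to 0.33 CPM. A fit without the ET 5 d libraries, chosen after seeing the data, called 15, 11, 32, 33, 22, 7 and 11 genes in the same order. For this fit and for the replicate block the share of all genes called was not taken.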
